A study of Mus musculus with 6 samples.

Results

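Open chromatin at the promoters of long intergenic noncoding RNAs (lincRNAs) was compared between small intestinal organoids grown from aged and from young mice. A lincRNA is a transcript that lies between protein-coding genes and is not translated into a known protein. The regions described here are all the consensus peaks whose nearest gene was typed as a lincRNA in the deposited peak annotation and whose distance to that gene's transcription start site (TSS) was 1000 bp or less in either direction. By this rule 938 peaks at 844 lincRNA genes were taken out of 156733 peaks, which is 0.598% of all peaks. The rule uses position and gene type, not the counts.

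The accessibility data came from ATAC-seq: the enzyme Tn5 cuts and tags DNA that is free of nucleosomes, and the number of reads over a region measures how open it is. Organoids are cultures of intestinal epithelium grown in a gel outside the animal, so they hold the stem cells and their differentiated offspring but not the other tissues of the gut. The aged group held 3 libraries of organoids from C57BL/6JRj mice aged 20 to 22 months. The young group held 3 libraries of organoids from C57BL/6JRj mice aged 2 to 3 months. All 6 cultures were untreated, were grown for 3 to 5 weeks and were used at passage 4 (replicate 1 of each age), passage 3 (replicate 2) or passage 2 (replicate 3). The labels name no transgene, do not give the number or sex of the mice and do not say whether a culture came from 1 mouse or from a pool, so the p-values measure the spread between these cultures and no more.

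Many lincRNA promoters are built like those of protein-coding genes, with a short nucleosome-free stretch in front of the start, and a large group of them are divergent promoters in which a lincRNA and a coding gene start back to back from one open region. Other lincRNAs serve as host transcripts from which microRNAs are cut, or act in the nucleus on neighbouring genes, and promoters of this kind are often open in only a few cell types. An open promoter permits transcription but does not measure it, and no RNA was analysed here.

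The sequences of promoters and microRNAs that the results turn on are shown first. Promoter windows run from 250 bases before to 50 after a RefSeq transcript start (GRCm38.p6), 5′ to 3′ on the strand of the transcript, with each CpG dinucleotide in capitals, since the levels described further on differed with CpG content. The first of the 5 windows is 2210417A02Rik at chr5:148741590-148741889 on the plus strand, the peak with the smallest adjusted p-value. The second is Gm2694 at chr8:87472866-87473165 on the plus strand, a CpG-dense promoter that it shares with the coding gene Cbln1. The third is Mir205hg at chr1:193510161-193510460 on the minus strand, the host of miR-205. The fourth is 4930433N12Rik at chr9:3199764-3200063 on the minus strand, a divergent pair with another lincRNA. The fifth is 5830416I19Rik at chr5:64044723-64045022 on the plus strand, whose RefSeq start lies in the peak annotated to RP23-192C21.3, the peak with the largest fold change.
2210417A02Rik: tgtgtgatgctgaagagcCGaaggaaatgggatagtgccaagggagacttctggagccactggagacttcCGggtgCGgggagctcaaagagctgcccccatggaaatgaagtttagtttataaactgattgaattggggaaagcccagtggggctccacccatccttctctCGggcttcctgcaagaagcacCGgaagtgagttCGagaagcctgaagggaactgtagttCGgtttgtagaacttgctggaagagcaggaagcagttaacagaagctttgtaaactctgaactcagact
Gm2694: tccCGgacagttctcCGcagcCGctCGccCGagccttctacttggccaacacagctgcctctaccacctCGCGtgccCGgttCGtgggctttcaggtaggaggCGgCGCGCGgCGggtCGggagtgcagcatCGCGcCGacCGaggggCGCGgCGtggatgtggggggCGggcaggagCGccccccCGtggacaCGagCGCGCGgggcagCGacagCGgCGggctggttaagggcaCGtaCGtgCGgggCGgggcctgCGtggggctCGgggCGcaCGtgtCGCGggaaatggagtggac
Mir205hg: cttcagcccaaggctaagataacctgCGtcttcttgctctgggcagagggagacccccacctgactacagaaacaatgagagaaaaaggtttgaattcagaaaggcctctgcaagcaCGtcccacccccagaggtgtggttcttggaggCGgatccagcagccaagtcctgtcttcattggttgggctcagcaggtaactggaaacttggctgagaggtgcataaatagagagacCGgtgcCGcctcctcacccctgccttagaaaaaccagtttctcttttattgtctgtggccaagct
4930433N12Rik: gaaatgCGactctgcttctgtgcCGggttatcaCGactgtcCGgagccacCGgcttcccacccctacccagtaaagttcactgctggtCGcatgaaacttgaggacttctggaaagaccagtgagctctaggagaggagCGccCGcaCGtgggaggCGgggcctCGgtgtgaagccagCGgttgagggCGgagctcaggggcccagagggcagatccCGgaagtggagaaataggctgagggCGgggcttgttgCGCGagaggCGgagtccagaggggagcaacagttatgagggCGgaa
5830416I19Rik: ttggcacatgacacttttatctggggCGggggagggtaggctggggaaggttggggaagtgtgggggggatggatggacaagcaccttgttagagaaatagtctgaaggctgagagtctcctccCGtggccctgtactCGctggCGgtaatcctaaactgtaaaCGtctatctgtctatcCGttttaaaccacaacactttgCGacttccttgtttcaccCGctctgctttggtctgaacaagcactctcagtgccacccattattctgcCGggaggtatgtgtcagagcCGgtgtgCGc

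These windows differ widely in CpG content. The Gm2694 window holds 42 CpGs and is 73.7% G or C, with an observed over expected CpG ratio of 1.06. The Mir205hg window holds 5 CpGs and has a ratio of 0.244, and the 2210417A02Rik window holds 7 CpGs and has a ratio of 0.38. The 4930433N12Rik window holds 19 CpGs and 3 copies of the GC box (GGGCGG on either strand), the binding motif of Sp factors, while the Gm2694 window holds 2 copies and the Mir205hg window none. The 2210417A02Rik window holds 2 matches to the TATA box letters TATAAA, which overlap on opposite strands of the same stretch, tttataaa.

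Of the 6 mature microRNAs encoded in the transcripts at called promoters, 3 are printed, the best known arm of each hairpin, with the seed (bases 2 to 8) in capitals, because the seed is the stretch that pairs with target messages. miR-205-5p lies 2.86 kb from the centre of the Mir205hg promoter peak (chr1:193507503-193507524, minus strand). miR-29b-3p lies 18.9 kb from the centre of the Gm37027 peak (chr1:195037091-195037113, plus strand), and miR-29c-3p lies 19.4 kb from it (chr1:195037600-195037621, plus strand).
mmu-miR-205-5p: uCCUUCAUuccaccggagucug
mmu-miR-29b-3p: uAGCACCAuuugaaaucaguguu
mmu-miR-29c-3p: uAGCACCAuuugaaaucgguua
miR-29b-3p and miR-29c-3p share the seed AGCACCA, and miR-205-5p has the seed CCUUCAU. miR-205 is known as a microRNA of stratified and glandular epithelium, and the miR-29 family is known for repressing collagen and other matrix genes.

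The libraries held between 21687816 and 26093521 counts in peaks in the aged group and between 7278161 and 25901670 in the young group. Young replicate 1 had the fewest counts, and 5283 of its peaks had none, against at most 718 in any other library. It also stood apart on the first principal component of all tested peaks, which held 37.6% of the variance, and young replicate 3 stood apart on the second, with 22.3%. Counts in the lincRNA promoter peaks summed to between 254984 and 309947 per aged library and between 84333 and 307386 per young library. Promoter peaks of 16 of 20 intestinal epithelial marker genes were present, with a summed level of 475 to 492 CPM in aged libraries and 444 to 496 CPM in young libraries, where CPM are counts scaled to an equal library total. For immune markers, 2 of 10 genes had such a peak and the sum was 0.455 to 1.09 CPM in aged and 0.561 to 1.48 CPM in young libraries, with no promoter peak at Ptprc or Cd3e. The epithelial genes Vil1, Krt19, Muc2 and Dclk1 had none either, so a missing peak alone does not show that a cell type is absent. Stromal markers (6 of 10 genes with a peak) summed to 32.5 to 38.0 CPM in aged and 29.0 to 37.3 CPM in young libraries, and endothelial and neural markers (3 of 10) to 9.28 to 10.6 CPM in aged and 9.44 to 12.5 CPM in young libraries. No marker promoter was called between ages.

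The lincRNA promoter peaks were mostly short and close to a start. Of the 938, 668 (71.2%) carried the annotation class promoter-TSS, 139 lay in introns, 112 in exons and 19 at transcript ends. Their centres lay a median of 267 bp from the TSS, with 246 within 100 bp and 655 within 500 bp, and 513 lay upstream of the start while 425 lay downstream. In 753 genes there was 1 such peak, in 91 genes more than 1, and at most 3. A RefSeq coding gene had its start or its end within 1 kb of 237 of the peaks (25.3%), and the counts of such a peak cannot be split between the genes. The centres of 235 of the 938 peaks lay inside the span of a RefSeq coding gene, and some peaks belong to both sets. Not all the peaks are therefore intergenic by RefSeq. Of the 844 genes, 446 could be matched to RefSeq by name and place, and 420 of these are typed as lncRNA there while 19 are typed as protein-coding. Chromosome 5 held 11.5% of the lincRNA promoter peaks, against 6.9% of all peaks, and chromosome 3 held 8.96%, against 4.81% of all peaks.

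A peak entered the test for age when its counts were high enough in at least 3 libraries to be compared, and 850 of the 938 did. The 3 could be the libraries of 1 age alone, so a peak with few reads in the other age could pass. The 88 untested peaks had a mean of at most 0.556 CPM. At the edge of the distance rule, 58 peaks lay in the last 100 bp inside the limit, with a median of 2.77 CPM, and 71 lincRNA peaks lay in the first 100 bp outside it, with a median of 4.21 CPM.

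The levels of lincRNA promoters stood below those of coding promoters in every library of both ages. A lincRNA promoter peak held a median of 5.56 CPM over the 6 libraries, with quartiles of 1.56 and 19.8 CPM and the highest at 117 CPM. The median of protein-coding promoter peaks, chosen by the same distance rule, was 16.8 CPM, that of antisense promoters 5.02 CPM and that of pseudogene promoters 2.32 CPM. Per kb of peak width the medians were 11.4 CPM for lincRNA and 21.2 CPM for coding promoters. Within each library the median log2 CPM of tested lincRNA promoter peaks was 1.58 to 1.70 lower than that of coding promoter peaks, with a mean difference of -1.64 ± 0.044 (SD, n = 6 libraries), or 3.11-fold lower. An exact sign-flip permutation test over libraries gave a two-sided p of 0.031, the smallest that 6 libraries can give. All 6 were counted over the same peaks, so this p covers the spread between libraries and not that among promoters. Scaled to peak width the difference was -0.84, or 1.79-fold.

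The gap was narrower between CpG-rich promoters, in every library. A promoter window was called CpG-rich when more than 50% of its bases were G or C and its CpG ratio was over 0.6. Each peak was given the RefSeq window of its gene whose start lay nearest the peak centre, within 1000 bp. Such a window need not overlap the peak, and peaks on chromosome 18 were left out. At lincRNA promoter peaks 110 of 353 windows (31.2%) were CpG-rich, counted per peak over 321 genes. The share was 63.8% of 7824 windows at coding promoter peaks and 33.2% of 286 windows at antisense promoter peaks. The median CpG ratio was 0.414 at lincRNA promoters and 0.736 at coding promoters. Among tested peaks with CpG-rich windows, the median log2 CPM differed by -0.195 ± 0.058 (SD, n = 6 libraries) between 104 lincRNA and 4912 coding peaks, or 1.14-fold. Among the other windows it differed by -1.21 ± 0.042, or 2.32-fold, between 214 lincRNA and 2623 coding peaks. The per-library differences ran from -0.254 to -0.113 for CpG-rich windows and from -1.28 to -1.17 for the others, so they did not overlap. This split was chosen after the levels were seen, and each difference had an exact sign-flip permutation p of 0.031 over the 6 libraries. Again such a p covers the spread between libraries only.

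**Figure D1:**
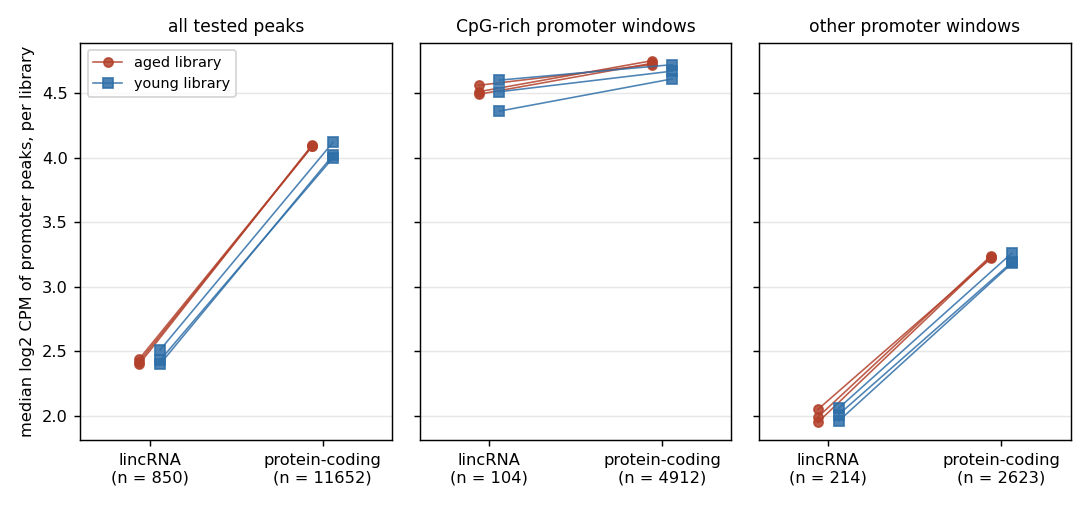
Median log2 CPM per library (vertical axis, one point per library, aged as circles and young as squares) of tested lincRNA and protein-coding promoter peaks, for all peaks, for CpG-rich windows and for the other windows; the lines join the values of one library. The lincRNA median lies 1.64 below the coding median for all peaks, 0.195 below it in CpG-rich windows and 1.21 below it in the others.

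Among lincRNA promoters themselves peaks with a higher CpG ratio in the window had a higher mean CPM, with a Spearman rho of 0.45 over 318 peaks. This is a description across peaks, which share the 6 libraries and differ in base composition. The median was 22.8 CPM for peaks with CpG-rich windows and 3.91 CPM for those with other windows. Peaks next to a coding start or gene end were the more open ones, with a median of 16.5 CPM, against 3.88 CPM for those away from one. Without the peaks near a coding gene, the lincRNA median lay 2.13 below the coding median on the log2 scale, or 4.36-fold. The split by CpG content and the split by a near coding gene overlap. Among the 10 most open and the 10 widest peaks, every peak with a CpG-rich window lies near a coding start or gene end. The called peak of 4930433N12Rik has such a window but no near coding gene. The narrow gap between CpG-rich promoters includes peaks near a coding gene.

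**Figure D2:**
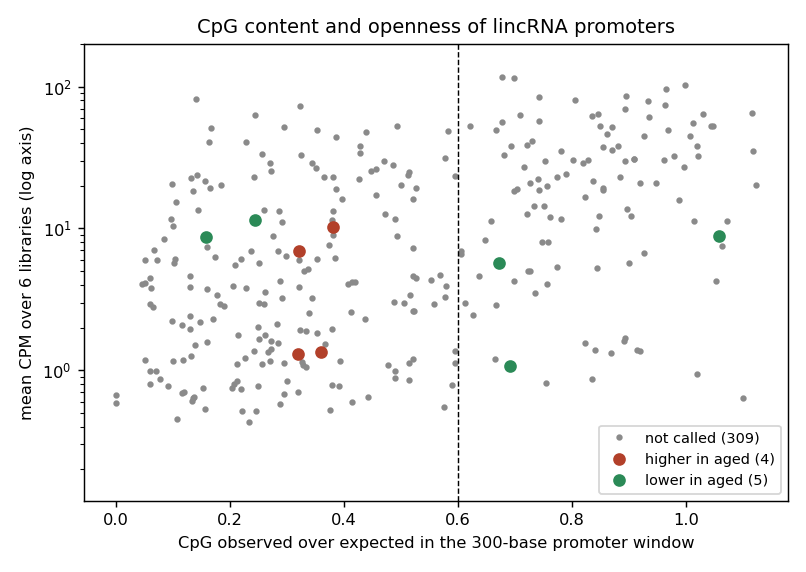
Mean CPM over the 6 libraries (vertical log axis) against the observed over expected CpG ratio of the RefSeq promoter window (horizontal axis) for tested lincRNA promoter peaks with a window; the dashed line marks a ratio of 0.6 and colours mark peaks called between ages. Peaks with CpG-rich windows have a median of 22.8 CPM, against 3.91 CPM for the others, and called peaks fall on both sides of the line.

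Sequence motifs were compared as shares of windows, with no test. The GC box (GGGCGG) was present in 40.5% of lincRNA windows, against 62.9% of coding windows and 35.7% of all 32851 promoter windows of that length. The ETS motif CCGGAAG was present in 9.92% of lincRNA windows, against 15.6% of coding windows and 8.86% of all windows. The TATA box (TATAAA) was present in 10.5% of lincRNA windows, against 8.31% of coding windows and 13.6% of all. The CCAAT box was found in 39.9% of lincRNA and 38.2% of coding windows, and the intestinal CDX motif TTTATNG in 9.63% of lincRNA and 7.59% of coding windows. Motifs were searched on both strands, and a match is a run of letters, not a bound site. The GC box letters and the ETS letters each hold a CpG, so that both motifs overlap with the CpG ratio.

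The 10 most open lincRNA promoters per peak, at 82.0 to 117 CPM, had log2 fold changes between -0.628 and 0.169 from aged over young. None was called, beside 2.47% of tested lincRNA promoters and 1.13% of all tested peaks, so 10 peaks are too few to compare. The highest of the 10 was 1110020A21Rik at chr17:84956665-84958600, with 127, 106 and 122 CPM in aged libraries, against 108, 115 and 125 CPM in young libraries. The second was 2700012I20Rik at chr9:57075301-57076352, with 112, 109 and 116 CPM in aged libraries, against 131, 99.1 and 123 CPM in young libraries. In both promoters the ranges of the ages overlapped. Of the 10, 8 lie within 1 kb of a coding start or gene end, and the fourth, Yam1 at chr17:39846709-39847410, overlaps the ribosomal RNA pseudogene Rn18s-rs5, so that its reads can come from many ribosomal DNA copies and its level is uncertain. Yam1 had 75.01, 59.3 and 96.6 CPM in aged libraries, against 127, 80.8 and 151 CPM in young libraries. It was not called without a block for replicate number (adjusted p = 0.669), and it was called with one, at a log2 fold change of -0.62 and an adjusted p of 4.1e-12. The aged library was lower in each of the 3 pairs of the same number. The 10 widest peaks, 1937 to 2588 bp, had log2 fold changes between -0.144 and 0.264, and 7 of them lie near a coding gene. None of the 10 widest was called, again too few peaks to set against those shares. Among these, 4831440E17Rik was called without young replicate 2 (adjusted p = 0.0262).

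The share of all peak counts that fell in lincRNA promoters was close in both ages. It was 1.176, 1.176 and 1.188% in aged libraries, against 1.159, 1.187 and 1.16% in young libraries. The means were 1.18 ± 0.007% in aged and 1.168 ± 0.016% in young libraries (SD, n = 3 each), a difference of 0.0114 percentage points, above the SD of the aged and below that of the young libraries, with an exact two-sided permutation p of 0.3, where 0.1 is the smallest that 3 against 3 allows. The widest 95% Clopper-Pearson interval, that of young replicate 1, ran from 1.151 to 1.167% and covers counting error only.

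Aged against young, 21 of the 850 tested lincRNA promoter peaks (2.47%) passed edgeR's quasi-likelihood test at 0.05 after Benjamini-Hochberg adjustment over all 132055 tested peaks, where the background share of called peaks was 1.13%. In 13 the aged libraries were higher (1.53%, background 0.619%) and in 8 they were lower (0.941%, background 0.51%). Beside these, 147 of 11652 coding promoter peaks (1.26%), 7 of 805 antisense promoter peaks (0.87%) and 14 of 622 pseudogene promoter peaks (2.25%) were called. Of the called coding promoter peaks, 42 were higher and 105 lower in aged. No test was made of the difference between classes. The median log2 fold change of lincRNA promoters was -0.00148, that of all tested peaks -0.0111 and that of coding promoters 0.0314. At an unadjusted p under 0.05 there were 125 lincRNA promoter peaks (background 9.71%), and in 165 of 850 (19.4%, background 14.7%) all aged libraries lay on one side of all young libraries, 86 above and 79 below. The median coefficient of variation within the group was 10.1% in aged and 13.7% in young libraries.

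With replicate number as a block, which pairs the aged and the young culture of the same passage, 49 of 850 were called (5.76%, background 2.67%), 27 higher and 22 lower in aged, and all 21 were among them. With libraries thinned to the depth of the shallowest, 11 were called (background 0.767%), 9 of them among the 21. Without young replicate 1, the shallow library, 19 were called (background 0.82%), of which 17 were among the 21. DESeq2 called 14 (background 0.69%), all among the 21.

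**Figure D3:**
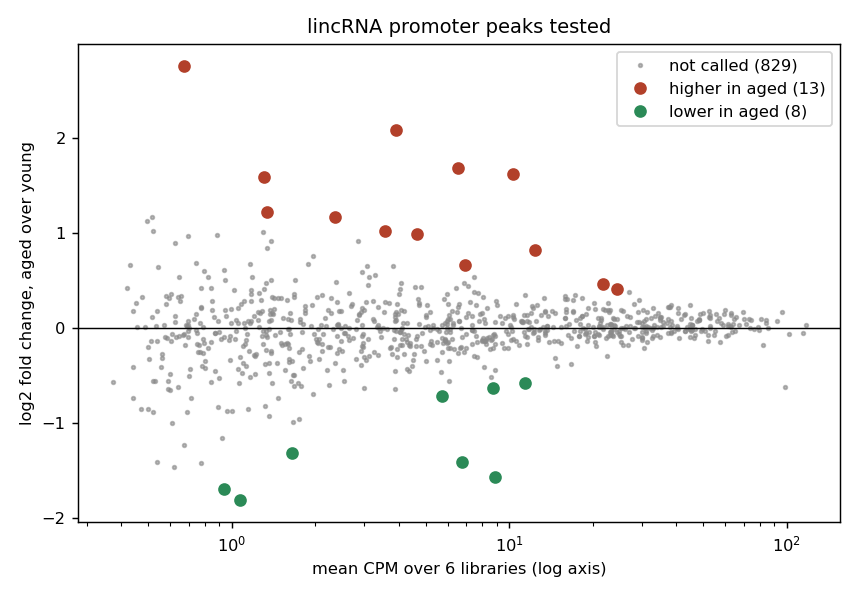
Log2 fold change, aged over young (vertical axis), against mean CPM (horizontal log axis) for the 850 tested lincRNA promoter peaks; filled circles are the 13 peaks called higher and the 8 called lower in aged, dots the others. Called peaks have means up to 24.5 CPM, and the 10 most open peaks lie between -0.628 and 0.169.

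Of the 21 called peaks, 20 carried the class promoter-TSS, 20 showed no overlap between the ages (95.2%, background 14.7%) and 13 changed more than 2-fold. The calls and the overlap rest on the same counts, so a lack of overlap is no separate support for a call. Absolute log2 fold changes of the 21 peaks ran from 0.409 to 2.77, and the most open of the 21 had the smallest change. The calls of 10 stood when any 1 library was left out, and 8 stood in every alternative that gave a value: 2210417A02Rik, Gm37027, Gm2694, Gm26654, Gm20461, RP24-378G4.6, RP23-192C21.3 and 4930433N12Rik. Of these, RP23-192C21.3 had no value with DESeq2 or in thinned libraries and 4930433N12Rik none in thinned libraries. RP23-192C21.3 passed the count filter through its aged libraries alone.

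The promoter of 2210417A02Rik, a lincRNA of unknown function, was more open in aged organoids and had the smallest adjusted p of the 21. Its peak at chr5:148741619-148742013, 24 bp upstream of the TSS, had 14.7, 16.1 and 15.8 CPM in aged libraries, against 5.19, 5.18 and 4.75 CPM in young libraries. Every aged library lay above every young one, with little spread in either group. Means were 15.5 ± 0.746 CPM in aged and 5.04 ± 0.255 CPM in young libraries (SD, n = 3 each), a log2 fold change of 1.63 ± 0.138 (SE) with an adjusted p of 1.6e-09. A second peak of the same gene, centred 951 bp away at chr5:148740419-148741311, was the larger of the pair and differed little, with 23.0 ± 0.65 CPM in aged and 23.4 ± 1.29 CPM in young libraries (log2 fold change -0.03, adjusted p = 0.959). The smaller peak is the one that holds most of the window printed above. Whether the pair of peaks differed from each other in their response was not tested.

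Higher accessibility was also found at the start of the transcript that carries 2 members of the miR-29 family. The peak at chr1:195018004-195018401, annotated to Gm37027, lies inside the RefSeq lncRNA A330023F24Rik, whose other end holds the miR-29b-2 and miR-29c hairpins. It had 5.36, 6.28 and 7.03 CPM in aged libraries, against 2.11, 1.59 and 1.002 CPM in young libraries, with no overlap. The log2 fold change was 2.09 ± 0.217 (SE), or 4.26-fold, with an adjusted p of 1.1e-07. A further peak at chr1:195016877-195017468 covers the RefSeq start of A330023F24Rik and lies just outside the distance rule. It had 11.8, 11.5 and 10.9 CPM in aged libraries, against 8.28, 5.37 and 5.70 CPM in young libraries, a log2 fold change of 0.90 with an adjusted p of 0.000499. Both peaks at this end of the transcript were higher in aged, and the next one, at 9630010A21Rik about 3.5 kb away, had a log2 fold change of 0.14 and an adjusted p of 0.833. The mature miRNAs were not measured.

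The Mir205hg promoter, labelled 4631405K08Rik in the files, was less open in aged organoids. Its peak at chr1:193509997-193510751 had 8.36, 9.75 and 9.55 CPM in aged libraries, against 11.1, 13.7 and 15.8 CPM in young libraries. The ages did not overlap, and the log2 fold change was -0.58 ± 0.134 (SE), with an adjusted p of 0.0171. This call was lost without aged replicate 1 (adjusted p = 0.149), aged replicate 3 (0.0855) or young replicate 3 (0.137), and in thinned libraries (0.0613).

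Gm2694 was less open in aged organoids, with the smallest adjusted p among the lower peaks. This lincRNA starts back to back with Cbln1, which encodes cerebellin 1, a secreted organiser of synapses in the brain, and the peak at chr8:87472362-87473347 spans both starts. It had 5.64, 4.11 and 3.77 CPM in aged libraries, against 13.6, 15.5 and 10.7 CPM in young libraries. The highest aged library lay well under the lowest young one. Means were 4.50 ± 0.996 CPM in aged and 13.3 ± 2.44 CPM in young libraries (SD, n = 3 each), a log2 fold change of -1.57 ± 0.164 (SE), or 2.97-fold lower, with an adjusted p of 1.5e-07. The counts of this peak cannot be split between both genes.

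Gm26654 was lower in aged organoids as well. Its peak at chr3:96401770-96402735 had 3.91, 3.65 and 3.53 CPM in aged libraries, against 9.26, 9.08 and 11.1 CPM in young libraries, a log2 fold change of -1.41 with an adjusted p of 3.9e-07. The groups lay far apart. The peak overlaps the tRNA gene n-TNgtt10, and tRNA genes exist in many near-identical copies, so which copy the reads came from is uncertain.

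4930433N12Rik forms a divergent pair with the lncRNA Gm31138, and the peak at chr9:3199469-3200075 covers both starts. It had 0.682, 0.139 and 0.582 CPM in aged libraries, against 1.68, 1.78 and 1.58 CPM in young libraries. Young libraries were tight and all above the aged ones, and the log2 fold change was -1.82 ± 0.352 (SE), with an adjusted p of 0.0026. These levels rest on 15, 3 and 15 counts in aged and 12, 47 and 30 counts in young libraries.

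Gm20461 lies next to Fkbpl, a gene for an immunophilin-like protein. Its narrow peak of 183 bp at chr17:34643993-34644175 had 9.36, 9.98 and 11.1 CPM in aged libraries, against 2.11, 4.27 and 2.37 CPM in young libraries, a log2 fold change of 1.68 ± 0.186 (SE) with an adjusted p of 4.2e-07. The ages were well apart. The Fkbpl promoter peak, only 713 bp away, had 21.3 ± 1.39 CPM in aged and 20.5 ± 1.33 CPM in young libraries (SD, n = 3 each), a log2 fold change of 0.06 with an adjusted p of 0.915.

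The largest fold change belonged to the peak at chr5:64044928-64045049, annotated to RP23-192C21.3 and overlapping the RefSeq start of 5830416I19Rik. It held 29, 28 and 25 counts in aged libraries, against 1, 7 and 1 counts in young libraries. In CPM this is 1.32, 1.29 and 0.971 in aged and 0.14, 0.265 and 0.0527 in young libraries, a log2 fold change of 2.77 ± 0.465 (SE) with an adjusted p of 0.00044. Young libraries held so few reads there that the size of the fold is imprecise. All young counts were under the filter's minimum count of 10, so this peak entered the test only through the libraries in which it was high. A larger peak of the same lincRNA, centred 643 bp away at chr5:64045388-64045875, differed little. It had 8.47 ± 1.18 CPM in aged and 7.27 ± 2.41 CPM in young libraries (log2 fold change 0.14, edgeR adjusted p = 0.864).

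Gm26512 starts inside the span of Dio2, which encodes the deiodinase that converts thyroid hormone to its active form. Its peak at chr12:90737874-90738271 had 1.68, 2.17 and 2.21 CPM in aged libraries, against 0.421, 0.983 and 0.369 CPM in young libraries, a log2 fold change of 1.59 ± 0.312 (SE) with an adjusted p of 0.0032. The Dio2 promoter peak 938 bp away had 1.88 ± 0.176 CPM in aged and 1.21 ± 0.533 CPM in young libraries (SD, n = 3 each), with a log2 fold change of 0.83 that did not pass the test (adjusted p = 0.205). The Gm26512 call was lost in thinned libraries (adjusted p = 0.0932).

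A further 8 peaks were higher in aged organoids, of which 7 are described here, and most of these lincRNAs have no known function. RP24-378G4.6 on chromosome 14 had 18.3, 14.4 and 14.6 CPM in aged libraries, against 9.54, 8.25 and 9.34 CPM in young libraries (log2 fold change 0.82, adjusted p = 0.00022). Gm14968 on chromosome 19 had 4.50, 4.94 and 5.01 CPM in aged libraries, against 2.11, 2.31 and 2.58 CPM in young libraries (1.02, adjusted p = 0.0015). In both the groups were apart, and Gm14968 lost its call in thinned libraries (adjusted p = 0.0903). 2810404F17Rik on chromosome 16 averaged 6.32 CPM in aged and 2.98 CPM in young libraries (0.99, adjusted p = 0.005) and lost its call without aged replicate 2 (adjusted p = 0.0748).

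The remaining higher peaks were less stable. 2210011K15Rik averaged 1.85 CPM in aged and 0.836 CPM in young libraries (log2 fold change 1.22, adjusted p = 0.022). Gm15409 averaged 28.1 CPM in aged and 21.0 CPM in young libraries (0.41, adjusted p = 0.024). Gm13017 averaged 8.46 CPM in aged and 5.37 CPM in young libraries (0.66, adjusted p = 0.031). 2210011K15Rik lost its call without aged replicate 1 (adjusted p = 0.152), aged replicate 3 (0.0569), young replicate 2 (0.13) or young replicate 3 (0.0515), with DESeq2 (0.148) and in thinned libraries (0.427). Gm15409 lost it without aged replicate 1 (0.141), aged replicate 2 (0.0885), aged replicate 3 (0.113), young replicate 1 (0.08) or young replicate 3 (0.106). Gm13017 lost it without aged replicate 2 (0.0705), aged replicate 3 (0.359), young replicate 1 (0.0893) or young replicate 2 (0.153), with DESeq2 (0.0731) and in thinned libraries (0.254). The peak of RP24-457B22.3 covers the start of Fxr1, an RNA-binding protein gene. It had 23.9, 27.7 and 24.8 CPM in aged libraries, against 15.2, 22.5 and 16.3 CPM in young libraries (0.46, adjusted p = 0.04) and lost its call without aged replicate 1 (0.0527), aged replicate 2 (0.189), aged replicate 3 (0.13), young replicate 1 (0.189) or young replicate 3 (0.208), with library totals (0.067), with DESeq2 (0.09) and in thinned libraries (0.29).

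A further 4 peaks were lower in aged organoids. Gm38112, at the start of the RNA-binding protein gene Ralyl, had 0.364, 0.601 and 0.388 CPM in aged libraries, against 1.404, 1.97 and 0.897 CPM in young libraries (log2 fold change -1.70, adjusted p = 0.0075), and lost its call without aged replicate 3 (adjusted p = 0.0628) or young replicate 2 (0.21) and with DESeq2 (0.0546). 3222401L13Rik on chromosome 18, inside the spans of 3 coding genes, averaged 0.934 CPM in aged and 2.36 CPM in young libraries (-1.32, adjusted p = 0.0049), and lost its call without aged replicate 3 (0.0682) or young replicate 2 (0.0595) and in thinned libraries (0.153). E130018N17Rik averaged 6.87 CPM in aged and 10.6 CPM in young libraries (-0.63, adjusted p = 0.03), and lost its call without aged replicate 1 (0.326), young replicate 1 (0.0709) or young replicate 2 (0.0972) and with DESeq2 (0.0574). F730035M05Rik, which starts back to back with the liver glycogen phosphorylase gene Pygl, had 3.73, 4.94 and 4.77 CPM in aged libraries, against 4.49, 8.78 and 7.59 CPM in young libraries (-0.71, adjusted p = 0.039). It was the only called peak whose groups overlapped, and it lost its call without aged replicate 1 (0.237), aged replicate 3 (0.124), young replicate 2 (0.229) or young replicate 3 (0.0726), with DESeq2 (0.139) and in thinned libraries (0.217).

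**Figure D4:**
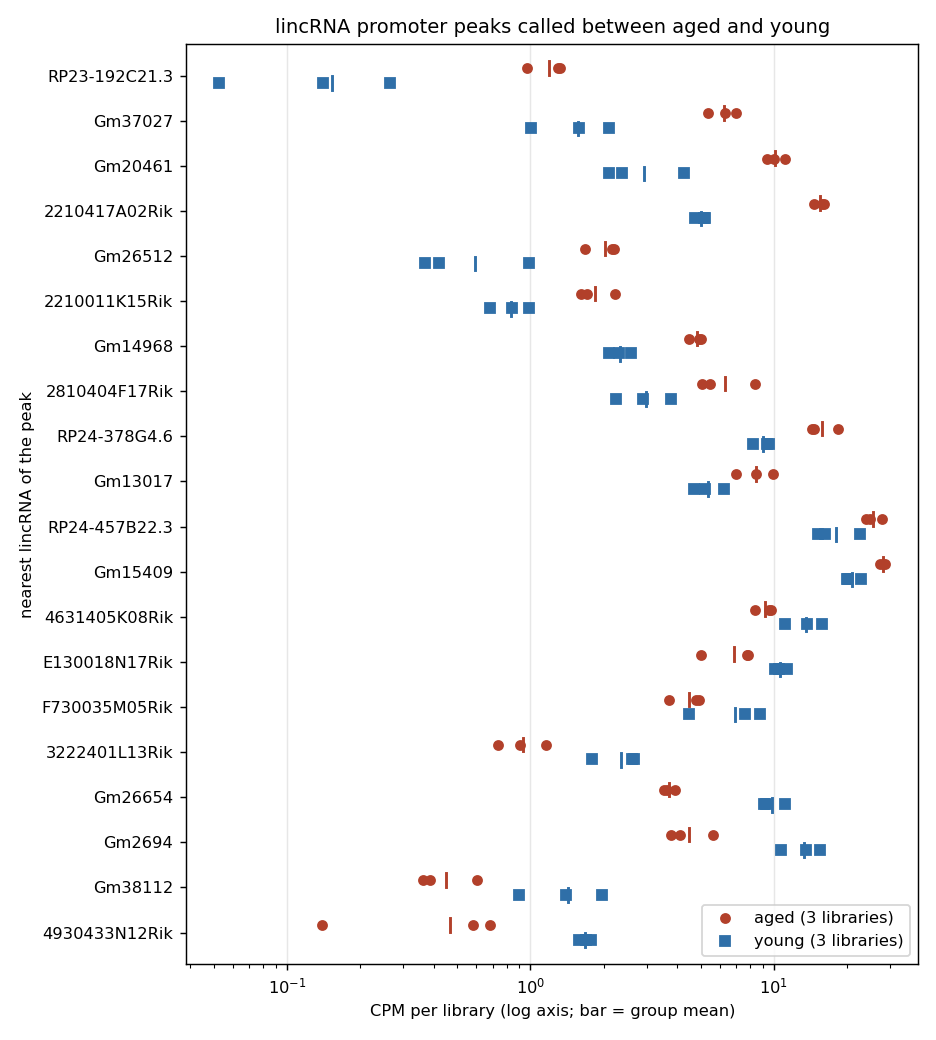
CPM in each library (horizontal log axis) of 20 of the 21 called lincRNA promoter peaks, named by the lincRNA in the deposited annotation and sorted by fold change; circles are the 3 aged and squares the 3 young libraries, and bars mark group means. The groups are apart in all rows except F730035M05Rik, and the widest gap is that of RP23-192C21.3.

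The called lincRNA promoters were set beside the nearest separate coding promoter. A coding start or gene end lay within 1 kb of 6 of the 21, and where such a start lies in the lincRNA peak itself (Cbln1, Fxr1, Ralyl and Pygl) it has no separate value. For each of the 21, the nearest other tested peak annotated as the promoter of a protein-coding gene lay 0.713 to 1750 kb away. Of these 21 neighbours edgeR called 0, which is near the background, since 1.41% of the neighbours of all 850 tested lincRNA promoters were called. They had the sign of the lincRNA peak in 15 of 21 cases, with log2 fold changes between -0.25 and 0.83. The peaks of G0s2 and Katnal1 each count more than once among these cases. Of all tested coding promoter peaks 59.5% had a positive log2 fold change, and the agreement in sign was not tested. Only 3 of the neighbours lay within 10 kb, those of Fkbpl, Dio2 and Oxa1l. Oxa1l, which encodes a mitochondrial membrane insertase, lay 8.54 kb from RP24-378G4.6 and had a log2 fold change of -0.10. Over all 850 tested lincRNA promoters the fold changes of peak and coding neighbour had a Pearson r of 0.12 and a Spearman rho of 0.049. Pearson's r was 0.28 (rho 0.14) over the 145 with a neighbour under 10 kb away, -0.0058 over the 446 with one at 10 to 100 kb and 0.17 over the 259 with one farther away, so it had no order with distance. These are descriptions across peaks that share the same 6 libraries.

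**Figure D5:**
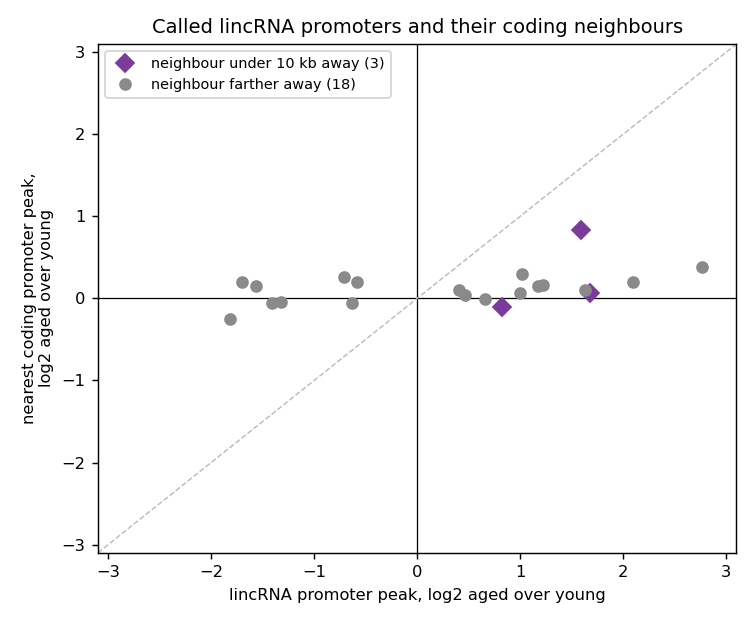
Log2 fold change, aged over young, of the nearest tested coding promoter peak (vertical axis) against that of the called lincRNA promoter peak (horizontal axis); diamonds are neighbours under 10 kb away, circles those farther away, and the dashed line marks equal change. All neighbours lie between -0.25 and 0.83 while the lincRNA peaks span -1.82 to 2.77.

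Within 5 kb of the 21 called peaks there were 27 other tested peaks, at 15 of them, and 1 of these was called, the second peak at the start of A330023F24Rik. The same lincRNA genes held 75 other tested peaks in all, of which that 1 was called. Over all tested peaks the called share was 1.13%, so these counts are too small to tell such peaks from the rest. Gm13017 had a single further peak, with a log2 fold change of 1.17 that was not called.

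LincRNAs with a known role were looked at by list. Of 169 genes in 7 lists (hosts of small nucleolar RNAs, hosts of microRNAs, nuclear and X-inactivation RNAs, imprinted RNAs, p53-linked and proliferation-linked RNAs, developmental RNAs, and immune-linked RNAs), 28 had a lincRNA promoter peak, with 30 peaks of which 26 were tested. Mir205hg was the 1 called peak, 0 higher and 1 lower in aged (3.85% of 26, beside 2.47% of lincRNA promoters and 1.13% of all peaks), a count too small to tell the lists from the rest. Genes were matched to the lists by name. These counts therefore leave out the called Gm37027 peak (log2 fold change 2.09), which lies inside the listed microRNA host A330023F24Rik. Among the 7 microRNA hosts matched by name the median log2 fold change was -0.0859, beside -0.0111 over all tested peaks. The promoter of Mir17hg, host of the miR-17 to miR-92 cluster known to promote proliferation, averaged 17.9 CPM in aged and 13.9 CPM in young libraries (0.31, adjusted p = 0.54), and was called with the replicate block (0.36, adjusted p = 0.0433) and without young replicate 2 (0.65, adjusted p = 0.00294).

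In the other lists no peak was called in either direction. Snhg6 and Snhg20, which host small nucleolar RNAs, had log2 fold changes of 0.17 and 0.02. Oip5os1 (Cyrano, labelled 1700020I14Rik), which controls the turnover of miR-7, averaged 28.2 CPM in aged and 32.9 CPM in young libraries (-0.22, adjusted p = 0.402). Ftx, from the X-inactivation centre, averaged 13.5 CPM in aged and 13.7 CPM in young libraries at its main peak. The imprinted growth regulator H19 averaged 0.627 CPM in aged and 0.729 CPM in young libraries, close to the lowest levels tested. Lockd (1190002F15Rik), next to the cell cycle inhibitor gene Cdkn1b, averaged 31.4 CPM in aged and 34.0 CPM in young libraries, and Trp53cor1 (lincRNA-p21), a target of p53, averaged 1.61 CPM in aged and 1.89 CPM in young libraries (-0.25, adjusted p = 0.863). Gata6os, beside the gut endoderm factor Gata6, was the most open of the listed promoters, at 59.1 CPM in aged and 57.3 CPM in young libraries (0.05, adjusted p = 0.909). Crnde, named in human for its expression in colorectal neoplasia, averaged 29.7 CPM in aged and 30.3 CPM in young libraries, and AW112010, an interferon-induced transcript of immune and epithelial cells, 8.01 CPM in aged and 8.91 CPM in young libraries (-0.09, adjusted p = 0.908).

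Passage number, tested beside age over the same 6 libraries, called 0 of 850 lincRNA promoter peaks with edgeR and 0 with DESeq2, where edgeR called 0.00303% of all peaks. At an unadjusted p under 0.05 there were 38 (4.47%, background 5.27%), and the smallest adjusted p was 0.425. Passage, replicate number and the culture code in the titles are the same division of the samples and cannot be told apart.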

How the data were processed

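ATAC-seq libraries of 6 organoid cultures were analysed from whole-number read counts per consensus peak. Per the submitters' processing notes the genome build was GRCm38 and the tools included Trim Galore 0.6.4, BWA 0.7.17-r1188, Picard 2.23.1, SAMtools 1.10, MACS2 2.2.7.1 and featureCounts 2.0.1. Per the file headers, the authors deposited 1 table of counts from featureCounts and 1 annotation table of the same peaks, which gives the nearest gene, its type and the distance to its TSS; consensus peaks were merged over libraries. Whether reads were shifted for the Tn5 cut is not stated in the labels or headers. The libraries were amplified with 20 PCR cycles, and no molecular identifiers are given, so intervals cover counting error only.

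Counts were filtered with filterByExpr (minimum count 10), scaled by TMM and tested with edgeR 4.0.16 (quasi-likelihood F test, robust, age as the only term) over all 132055 tested peaks, with Benjamini-Hochberg adjustment at 0.05. CPM are edgeR's values from TMM-scaled totals over tested peaks. Log2 CPM used a prior count of 2. The fit was tested on simulated data. Alternatives were DESeq2 1.42.0, RLE factors, library totals, no filter, thinning to the shallowest library, a passage term, a replicate block, leaving out each library, and narrower distance rules. Coordinates are 1-based, GRCm38. Gene records, promoter windows and microRNAs came from RefSeq (GRCm38.p6). By symbol or synonym and place, 446 of 844 genes matched, and 365 had a promoter sequence.

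Same-numbered aged and young cultures share passage and, in the titles, a culture code, although the descriptions give 1 code for all 6; they were taken as pairs. Their deviations from the group means correlated at 0.0738, 0.1265 and 0.1441, each the highest of that library's 3 correlations. Named peaks are those called (values of 1 called peak are not reported here), those whose gene is in a role list, the 10 most open, the 10 widest and the nearest coding promoter of each called peak; the A330023F24Rik start peak and the second 2210417A02Rik peak were named after their values were seen. The members and the lists were chosen with earlier results of these data known.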

Additional observations from a re-analysis of the deposited data

How the results depend on the processing

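The number of lincRNA promoter peaks called, 21 of 850, became 49 with the replicate block and 11 in thinned libraries. It was 22 with RLE factors (background 1.13%), 21 with library totals (1.12%), 27 with no filter (1.14%), 22 with a passage term (1.19%) and 15 to 23 without 1 library (0.607 to 1.4%). When only peaks within 100 bp of the TSS were kept, 5 of 227 were called, a count from a smaller set of peaks, beside 1.13% of all tested peaks. The share of counts turned round without the peaks near a coding gene, at -0.00461 percentage points (exact p = 0.4), and neither value passed its test. In the sign-flip test over the 3 pairs of the replicate block the share difference of 0.0114 had an exact p of 0.5. The lower level against coding promoters ranged from -1.65 to -1.63 without 1 library, where the exact p of 0.0625 is the smallest 5 libraries can give. Over 65 named peaks 736 values kept their side of the threshold, 51 lost and 4 gained it, and 43 values of peaks not called changed sign. With few counts, peaks under about 1 CPM have imprecise folds, and young replicate 1 limits depth most.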

Other observations

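The 28 lincRNA promoter peaks called only with the replicate block were 14 higher and 14 lower in aged, with a median absolute log2 fold change of 0.543, against 1.22 for the 21 called without it. Closest to the threshold without the block was Gm26519 on chromosome 5, with 3.81 ± 0.732 CPM in aged and 1.87 ± 0.817 CPM in young libraries (SD, n = 3 each; log2 fold change 0.91, edgeR adjusted p = 0.0501, and 0.00042 with the block). It was followed by 2610035D17Rik on chromosome 11, which had 7.12 ± 0.182 CPM in aged and 10.1 ± 0.677 CPM in young libraries (log2 fold change -0.52, edgeR adjusted p = 0.0578, and 0.0069 with the block). In both promoters the ages did not overlap. These 2 were named for their rank.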
